A study of Mus musculus with 4 samples.

Results

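The sites described here are 1468 IRF4-binding sites of activated regulatory T (Treg) cells that JunB and BATF occupied as well, and at which no IRF4 peak was called in cells lacking JunB. They were chosen by peak overlap: an IRF4 peak of Junb-sufficient cells that shared at least 1 bp with a JunB peak and with a BATF peak (a triple site), and that shared no base with an IRF4 peak of Junb-deficient cells. Of 31093 IRF4 peaks in Junb-sufficient cells, 8960 were triple sites, and 1468 of these, 16.4% (exact binomial 95% interval 15.6 to 17.2), had no Junb-deficient counterpart. Over all IRF4 peaks of Junb-sufficient cells, the share without a counterpart was 35.0% (10875 of 31093). The 1468 are called unmatched triple sites below, and the other 7492 kept triple sites. Kept means only that a Junb-deficient peak was called there, and IRF4 binding at a kept site may still have been lower. The absence of the peak selected the sites, so that this share and the places of the sites in the peak lists are descriptions with no test.

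The data are peak lists from chromatin immunoprecipitation-sequencing (ChIP-seq), in which fragments bound by a protein are recovered with an antibody, sequenced and called as peaks where they pile up. The cells were CD4+CD25+ Treg cells from mouse spleens (strain C57BL/6), activated through CD3 and CD28 for 60 h with IL-2. There were 4 libraries with 1 sample per group: JunB, BATF and IRF4 from Junb-sufficient cells, and IRF4 from Junb-deficient cells. The study names the mice Junb fl/fl and Cd4Cre Junb fl/fl, where the Cre acts in all cells with an active Cd4 promoter and thus not in Treg cells alone, whereas the sample labels read Foxp3cre JUNB+/+ and Foxp3cre JUNBFl/Fl, where it would act in Foxp3-expressing cells. Which of these holds could not be settled from the lists. The antibody field also gives BATF for IRF4 and IRF4 for BATF in Junb-sufficient libraries, and the sample titles were followed. Peak lists carry no expression, so neither the identity of the cells nor the loss of JunB could be checked. The Junb-deficient IRF4 library had 21127029 tags (aligned reads) against 23914441, and peaks were called on 17.9 M (M, mega) against 17.3 M once repeated positions were counted once, with 11.15% against 12.76% of tags in peaks and 29033 against 31093 peaks. The JunB list was called with peaks 151 bp wide and a threshold of 10 tags, and the BATF and Junb-sufficient IRF4 lists with peaks 613 bp wide and a threshold of 19 tags. No value here is a replicated difference between genotypes, and peaks are not replicates: intervals and p-values over peaks describe these lists.

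JunB and BATF are basic leucine zipper proteins of the AP-1 family that pair with each other and contact the AP-1 word TGAGTCA. IRF4, an interferon regulatory factor, contacts GAAA, binds weakly alone, and reaches many sites in T cells together with a BATF-JUN dimer on AP-1-IRF composite elements (AICE), in which a GAAA lies directly before the AP-1 word or, as TTTC, 4 bases before it. IRF4 can also bind paired GAAA words, and ETS-IRF composite elements with an ETS partner. In Treg cells, these factors are known for the effector program that includes ICOS and CTLA4.

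The sequences below are examples, chosen to show the words searched for, so that words are more frequent among them than over all unmatched sites. They are 141 bases around the centre of the IRF4 peak, plus strand of mm9, with each TGAGTCA and each AICE word in capitals. The first set is from the unmatched sites that stood highest in the IRF4 list or lay near genes of the effector program, and includes a site with 3 AP-1 words (Gata3), a site in a short repeat (Gm17379) and 3 sites with no word (Il7r, Icos and Fgl2). Of these 9 sites, 6 hold an AP-1 word, and of all 7 unmatched sites at the effector genes 2 do, both printed here.
Ptp4a2 intron, chr4:129500522-129500662: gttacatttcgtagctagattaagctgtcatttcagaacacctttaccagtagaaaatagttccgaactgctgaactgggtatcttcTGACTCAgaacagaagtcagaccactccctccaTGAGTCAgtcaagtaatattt
Celf2 intron, chr2:6515541-6515681: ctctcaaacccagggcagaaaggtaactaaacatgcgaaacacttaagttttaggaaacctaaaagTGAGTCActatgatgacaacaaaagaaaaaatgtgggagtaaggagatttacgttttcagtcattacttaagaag
Gpr33 upstream, chr12:53132008-53132148: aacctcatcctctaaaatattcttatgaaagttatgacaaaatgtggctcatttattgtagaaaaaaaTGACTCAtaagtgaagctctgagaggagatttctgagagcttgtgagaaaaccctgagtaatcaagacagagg
Ctla4 upstream, chr1:60955727-60955867: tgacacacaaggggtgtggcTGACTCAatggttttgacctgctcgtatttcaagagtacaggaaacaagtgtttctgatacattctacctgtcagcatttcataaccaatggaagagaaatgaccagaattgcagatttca
Gata3 downstream, chr2:9724645-9724785: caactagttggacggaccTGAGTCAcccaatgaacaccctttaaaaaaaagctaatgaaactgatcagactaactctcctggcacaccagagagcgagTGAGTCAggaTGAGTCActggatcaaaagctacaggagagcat
Gm17379 upstream, chrX:166433435-166433575: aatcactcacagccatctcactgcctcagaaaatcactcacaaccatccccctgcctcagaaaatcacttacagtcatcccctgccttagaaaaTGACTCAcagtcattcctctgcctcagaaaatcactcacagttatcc
Il7r upstream, chr15:9499745-9499885: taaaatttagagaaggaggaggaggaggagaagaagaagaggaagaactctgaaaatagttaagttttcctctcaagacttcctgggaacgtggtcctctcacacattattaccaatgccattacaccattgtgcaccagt
Icos downstream, chr1:61111420-61111560: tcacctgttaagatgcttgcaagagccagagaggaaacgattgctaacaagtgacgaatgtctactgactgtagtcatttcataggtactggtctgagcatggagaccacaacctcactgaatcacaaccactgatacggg
Fgl2 upstream, chr5:20876512-20876652: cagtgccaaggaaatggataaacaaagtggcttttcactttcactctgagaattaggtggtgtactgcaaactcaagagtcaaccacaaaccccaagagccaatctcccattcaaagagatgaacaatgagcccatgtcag

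The second set holds AICE words, first at 3 unmatched sites and then at 2 kept sites of Ctla4 and Icos, to set composite words beside both outcomes. The Ets1 site and the kept Ctla4 site hold the same word on opposite strands, and the others differ in bases or spacing.
Ets1 distal, chr9:32732710-32732850: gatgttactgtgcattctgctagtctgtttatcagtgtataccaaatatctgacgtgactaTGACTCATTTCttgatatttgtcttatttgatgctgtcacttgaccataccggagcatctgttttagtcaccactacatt
Frmd4b, chr6:97266063-97266203: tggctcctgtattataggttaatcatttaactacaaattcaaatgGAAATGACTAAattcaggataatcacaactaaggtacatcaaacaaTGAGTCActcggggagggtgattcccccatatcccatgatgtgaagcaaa
Fasl, chr1:163703148-163703288: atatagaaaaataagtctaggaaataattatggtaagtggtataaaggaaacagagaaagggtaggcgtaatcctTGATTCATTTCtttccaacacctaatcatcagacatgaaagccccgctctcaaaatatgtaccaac
Ctla4 downstream, kept, chr1:60995965-60996105: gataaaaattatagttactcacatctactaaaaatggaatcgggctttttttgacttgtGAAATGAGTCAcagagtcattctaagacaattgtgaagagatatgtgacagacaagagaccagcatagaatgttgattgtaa
Icos downstream, kept, chr1:61083663-61083803: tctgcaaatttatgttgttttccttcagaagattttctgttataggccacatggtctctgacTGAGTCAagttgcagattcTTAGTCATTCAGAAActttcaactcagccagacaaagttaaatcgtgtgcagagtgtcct

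Unmatched triple sites were found along the whole list of IRF4 peaks, and took a growing share of the triple sites down to part 9 of 10. The list was cut into 10 equal parts. In part 1, at the top, 108 of 2873 triple sites were unmatched (3.76%, 3.09 to 4.52), in part 3 291 of 1509 (19.3%, 17.3 to 21.4), in part 5 195 of 560 (34.8%, 30.9 to 38.9) and in part 9 51 of 87 (58.6%, 47.6 to 69.1), with 26 of 47 (55.3%, 40.1 to 69.8) in part 10. The median unmatched site stood at 33.6% of the IRF4 list, at 29.0% of the JunB list and at 54.1% of the BATF list. For kept sites these medians were 14.4%, 18.9% and 31.7%. Within parts of the IRF4 list, the median JunB place was nearer the top for unmatched than for kept sites. Part 6, at 45.9% against 42.4%, was the only exception. The median BATF place differed in either direction. In part 3, the median JunB place was 25% for unmatched and 30.8% for kept sites, and the median BATF place 43.7% and 47.6%. In part 1 the median JunB places were 6.51% and 7.21%, and the median BATF places 15.4% and 11.8%. The deposited score is 1 for every peak, so place in the list stood in for strength. How the lists are sorted is not stated in the file headers, and that a higher place means a stronger peak is an assumption behind every comparison at matched place. Each odds ratio below was computed within 20 equal parts of the IRF4 list, whereas shares are over all sites unless a part is named.

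**Figure D1:**
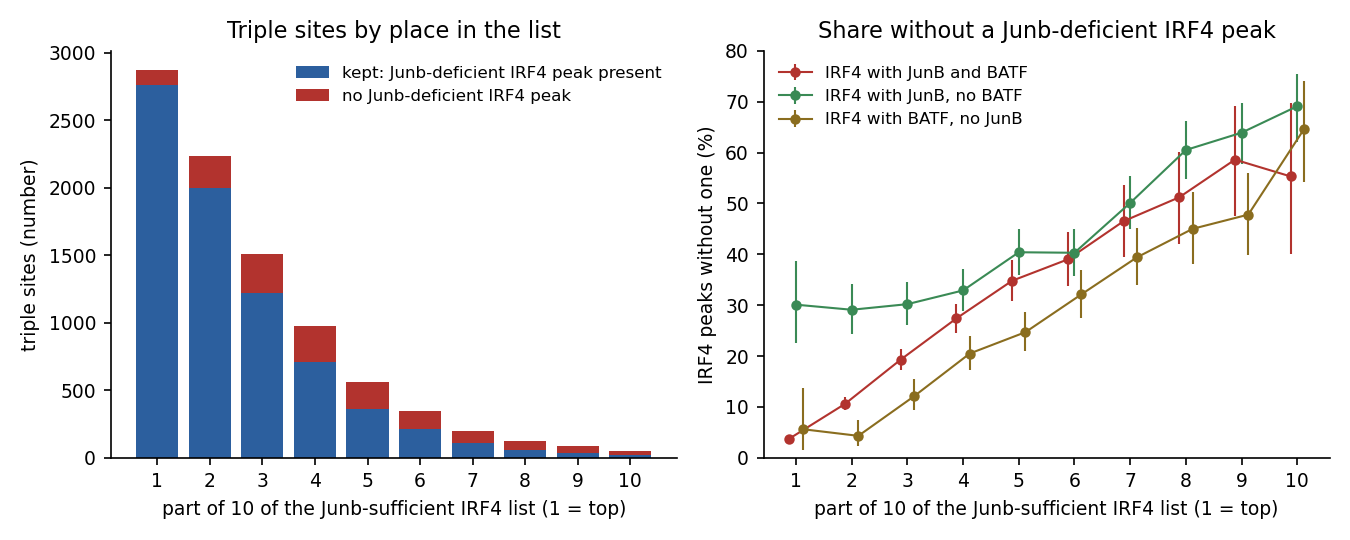
Left, number of triple sites (IRF4 peaks of Junb-sufficient cells with a JunB and a BATF peak) in each of 10 parts of the IRF4 list, split into sites with (blue) and without (red) a Junb-deficient IRF4 peak. Right, share of IRF4 peaks without one, for triple sites, for IRF4 with JunB only and for IRF4 with BATF only, with exact binomial 95% intervals over peaks. In part 1 3.76% of triple sites and 30.1% of sites with JunB but no BATF were unmatched.

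IRF4 peaks with JunB and no BATF peak lacked a counterpart more often than triple sites near the top of the list, 30.1% (22.6 to 38.6, 41 of 136) against 3.76% in part 1 and 29.1% (24.4 to 34.1, 104 of 358) against 10.6% (9.35 to 11.9) in part 2. In part 3 the intervals were still apart, and from part 4 on they overlapped, for example 32.9% (28.8 to 37.2) against 27.4% (24.6 to 30.3). For IRF4 peaks with BATF and no JunB peak the share was 5.63% (1.56 to 13.8) in part 1 and 4.32% (2.25 to 7.42) in part 2. In parts 2 to 5 it lay below that of triple sites with no overlap of the intervals, at 12.1% (9.40 to 15.4) in part 3 and 24.7% (21.0 to 28.7) in part 5.

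In distance, most unmatched sites were far from the overlap limit of the rule. How close a missing peak came to the thresholds of the peak caller could not be read from the lists. Counted from edge to edge, the nearest Junb-deficient IRF4 peak lay within 100 bp of 4 of the 1468, within 1000 bp of 80 and within 10000 bp of 759. Just inside the rule were a site near Ctsc, which codes for the protease cathepsin C, with a gap of 21 bp, and sites near Frat2 (22 bp) and Zpld1 (67 bp). Just outside it were kept sites near Aloxe3 and Rbms1, whose overlap was 9 and 28 bp. Counted from the centre of the site, a Junb-deficient IRF4 peak at another position within 10 kb accompanied 50.8% of unmatched sites (48.2 to 53.4) and 39.9% of kept sites (38.8 to 41.0). Junb-deficient peaks were called at least 1210 bp apart, so a kept site could have no second peak as close as an unmatched site could. These shares were thus not measured on equal terms. The peak caller demands 4-fold more tags than the surrounding 10 kb, and the part of the neighbouring peaks in the missing peaks was not tested. The JunB peak was centred a median of 25 bp from the IRF4 peak at unmatched and 24 bp at kept sites, and the BATF peak 24 and 21 bp.

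The AP-1 word was more frequent at unmatched than at kept triple sites. TGAGTCA, on either strand within 100 bp of the peak centre, was present at 778 of 1468 unmatched sites (53.0%, 50.4 to 55.6) and at 2866 of 7492 kept sites (38.3%, 37.2 to 39.4). It was present in 26.4% of all IRF4 peaks of Junb-sufficient cells, and in 2.42% of windows shifted by 5 kb from the unmatched sites. At matched place in the list the odds ratio was 1.99 (95% interval 1.76 to 2.26, adjusted p = 1.59e-27, exact conditional test over 20 parts of the list, two-sided, adjusted over 19 features). The excess held in single parts of the list with intervals apart from part 2 to part 6, for example 59.6% (53.4 to 65.5) against 36.4% (32.8 to 40.0) in part 4. In part 9, with 51 unmatched sites, the values were 45.1% and 47.2%. Among the 722 unmatched and 4503 kept sites with no other Junb-deficient IRF4 peak within 10 kb of the centre, the odds ratio was 1.89 (1.58 to 2.26, exact test, p = 7.77e-13).

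**Figure D2:**
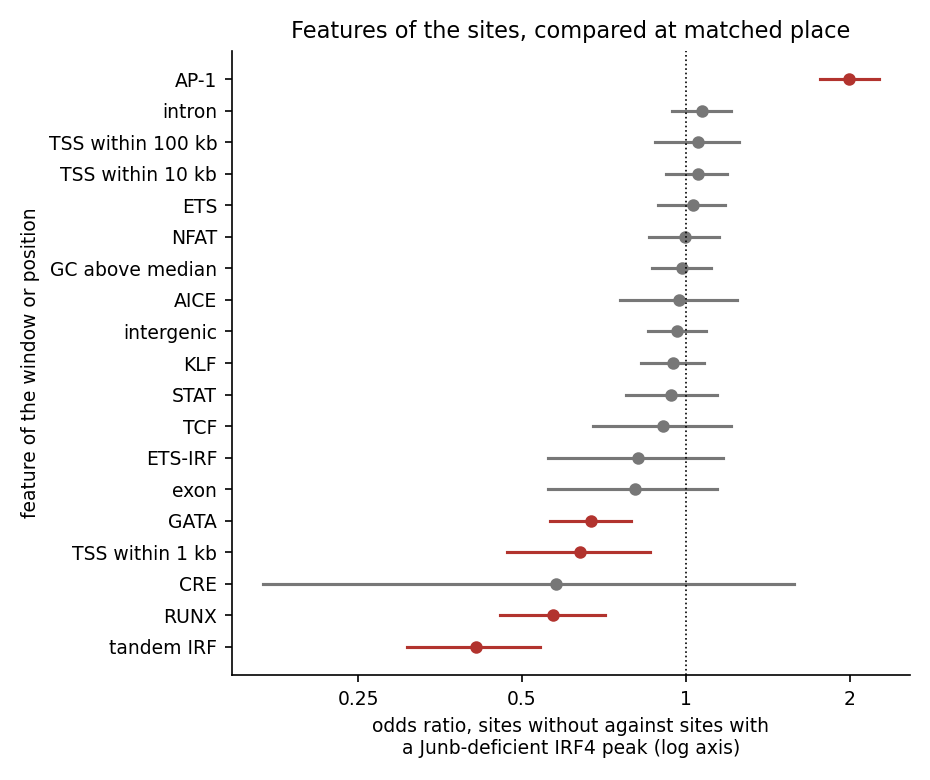
Odds ratio (points) with 95% interval (lines) of each of 19 features of sequence or position at unmatched against kept triple sites, within 20 parts of the IRF4 list, on a log axis. Red marks the 5 features with an adjusted p below 0.05: AP-1 stood above 1 at 1.99, and GATA, TSS within 1 kb, RUNX and tandem IRF stood below 1.

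Unmatched sites also held more copies of the word. At least 2 copies were present at 10.6% (9.10 to 12.3) of unmatched and 5.10% (4.61 to 5.62) of kept sites, an odds ratio of 2.44 (1.95 to 3.05, adjusted p = 1.18e-14, exact test, a feature added after the first value was seen). At least 3 were present at 19 unmatched (1.29%) and 28 kept sites (0.374%), among them the Gata3 site printed above. The nearest word lay a median of 20 bp from the centre of the IRF4 peak at unmatched sites and 22 bp at kept sites. Within 25 bp of the centre the word was present at 31.7% (29.3 to 34.1) and 21.5% (20.6 to 22.4) of sites. The odds ratio of this feature, likewise added, was 1.93 (1.69 to 2.22, adjusted p = 5.19e-21, exact test). With any base in the middle, TGANTCA was found at 61.9% of unmatched and 46.0% of kept sites.

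**Figure D3:**
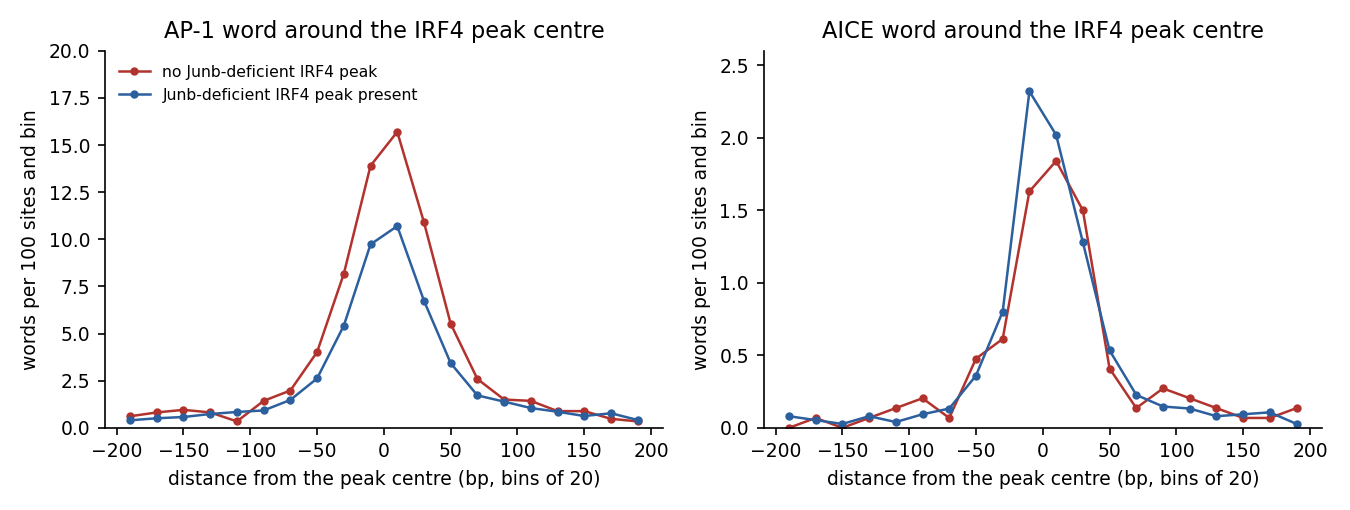
AP-1 words (left) and AICE words (right) per 100 sites in bins of 20 bp around the centre of the IRF4 peak, for unmatched (red) and kept (blue) triple sites. Both words peak at the centre. In the bin centred 10 bp after it, AP-1 words numbered 15.7 per 100 unmatched and 10.7 per 100 kept sites, and AICE words 1.84 and 2.02.

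The composite AICE word did not pass the test between unmatched and kept sites. It was searched as GAAA directly before TGANTCA or TGANTAA, or as TTTC, any 4 bases, and then TGANTCA or TGANTAA, on both strands, and may overlap an AP-1 word. It was present at 97 unmatched sites (6.61%, 5.39 to 8.00) and 568 kept sites (7.58%, 6.99 to 8.20), in 4.03% of all IRF4 peaks and in 0.355% of shifted windows. The odds ratio was 0.972 (0.755 to 1.24, adjusted p = 0.903, exact test), an interval that leaves room for differences of either sign. Of sites with TGAGTCA, 67 of 778 unmatched and 371 of 2866 kept sites also held an AICE word. The AICE word was not tested within sites of like AP-1 state. Windows with an AP-1 word and no AICE word made up 48.4% (45.8 to 51.0) of all unmatched and 33.3% (32.2 to 34.4) of all kept sites. The odds ratio was 2.00 (1.77 to 2.27, adjusted p = 4.62e-28, exact test, a feature added after the first value was seen). Sites with an AICE word counted here as lacking the feature. Around each TGANTCA word, a GAAA stood directly before it in 1.72% of the flanks at unmatched sites (1190 words) and 2.72% at kept sites (4154 words), and a TTTC with 4 bases between in 1.60% and 2.34%. Among spacings from 0 to 10 bases, these were the most frequent for GAAA and for TTTC in both groups of sites. The highest unmatched site with an AICE word, place 667 of the IRF4 list, lay 229 kb from the nearest transcription start site (TSS), that of Ets1. It was near the top of the other lists as well, at place 118 of 29659 for JunB and 297 of 13570 for BATF. The Frmd4b site (place 1286) lies in an intron of that gene, and the Fasl site (place 2520) 15.2 kb downstream of the TSS of Fasl, the gene of the death ligand FasL, in intergenic sequence. The kept site 30.0 kb downstream of a Ctla4 TSS, at place 192 of the IRF4 list, carries the composite word of the Ets1 site on the other strand. The paper reports lower IRF4 binding without JunB in a region downstream of Ctla4, by ChIP-seq and ChIP-PCR. Whether that region is this site was not examined, and a called peak does not show that the level of binding was kept.

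The tandem IRF word and the words of RUNX and GATA factors were less frequent at unmatched sites. Paired GAAA words with 2 bases between them (tandem IRF) were present at 65 unmatched sites (4.43%, 3.43 to 5.61) and 771 kept sites (10.3%, 9.61 to 11), in 9.49% of all IRF4 peaks and in 2.91% of windows shifted from the unmatched sites. The odds ratio was 0.411 (0.308 to 0.540, adjusted p = 2.56e-11, exact test). TGTGGTT, the word of RUNX factors, which bind with CBFB in T cells, was present at 7.43% (6.14 to 8.89) of unmatched and 12.8% (12 to 13.6) of kept sites, with 11.1% of all IRF4 peaks and 5.54% of shifted windows (odds ratio 0.571, 0.455 to 0.711, adjusted p = 8.99e-07, exact test). AGATAA, the word of GATA factors such as GATA3, was present at 14.4% (12.7 to 16.3) and 18.7% (17.8 to 19.6) of sites, with 14.9% of all IRF4 peaks and 11.4% of shifted windows (odds ratio 0.668, 0.562 to 0.791, adjusted p = 6.65e-06, exact test). Windows with none of TGANTCA, AICE or tandem IRF made up 35.3% (32.8 to 37.8) of unmatched and 45.2% (44.1 to 46.4) of kept sites.

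AP-1 and tandem IRF words were then considered jointly. Of triple sites with AP-1 and no tandem IRF word, 749 of 3428 were unmatched (21.8%, 20.5 to 23.3). Of those with both words it was 29 of 216 (13.4%, 9.18 to 18.7), of those with neither 654 of 4696 (13.9%, 12.9 to 15.0), and of those with tandem IRF alone 36 of 620 (5.81%, 4.10 to 7.95). In part 2 of 5 of the IRF4 list the same classes stood at 31.9% (29.0 to 35.0), 24.0% (13.1 to 38.2), 17.9% (15.8 to 20.0) and 6.32% (3.31 to 10.8). Within parts of the list and within sites of like AP-1 state, the odds ratio of the tandem IRF word was 0.454 (0.339 to 0.599, exact test, p = 1.58e-09), a comparison added after the first values were seen.

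**Figure D4:**
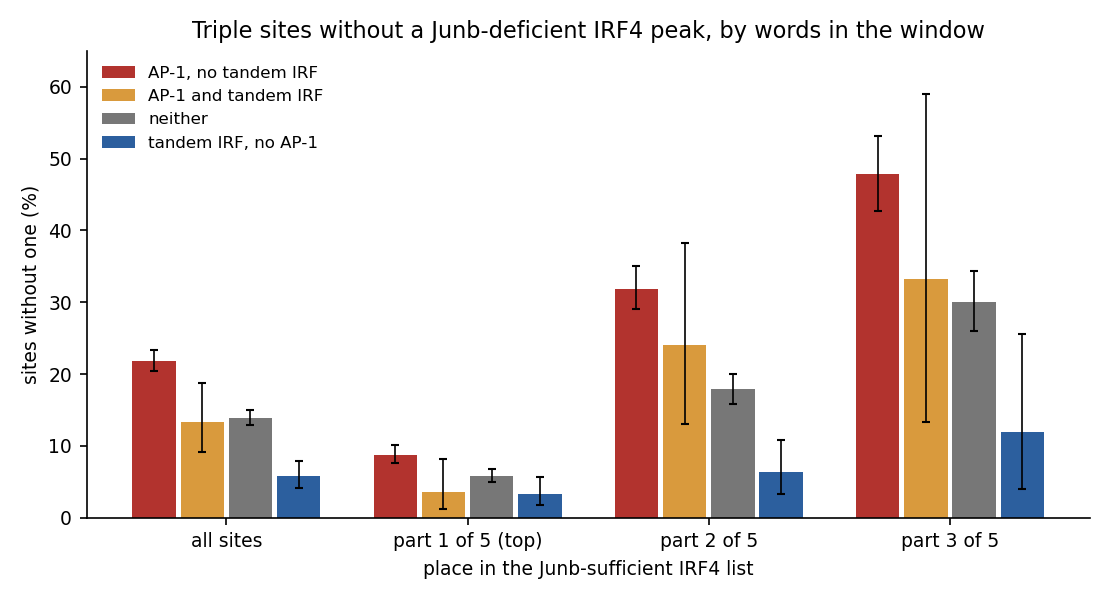
Share of triple sites without a Junb-deficient IRF4 peak, by the words within 100 bp of the peak centre, over all sites and in the first 3 of 5 parts of the IRF4 list, with exact binomial 95% intervals (lines). Sites with AP-1 and no tandem IRF word stood highest, at 21.8% over all sites and 47.9% in part 3, and sites with tandem IRF and no AP-1 word lowest, at 5.81% and 11.9%.

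Other sequence words did not pass the test. These were TGACGTCA, the full cAMP response element that some AP-1 family dimers bind (0.341% of unmatched and 0.534% of kept sites), the ETS-IRF composite word (GGAA and GAAA with 2 bases between, 2.79% and 3.47%), AGGAAG of ETS factors (24.1% and 25.2%), TGGAAA of NFAT (21.0% and 21.2%), TTCNNNGAA of STAT factors (11.4% and 12.9%), CTTTGAT of TCF factors (4.63% and 5.13%) and GGGTG of KLF factors (29.8% and 33.4%). In all IRF4 peaks these words were present at 0.827%, 3.74%, 27.8%, 19.7%, 11.4%, 4.61% and 37.1%, respectively. The interval of the odds ratio was narrow for NFAT (0.854 to 1.15) and wide for TGACGTCA (0.167 to 1.58), which only 5 unmatched sites held. GC content above the median of triple sites was found at 43.3% of unmatched and 48.6% of kept sites, with an odds ratio at matched place of 0.982 (0.867 to 1.11, adjusted p = 0.872, exact test). Short tandem repeats, taken as windows of this size in which at least 60% of bases equal the base 1 period (2 to 60 bases) earlier, were rare, with 12 unmatched sites (0.817%, 0.423 to 1.42) and 22 kept sites (0.294%, 0.184 to 0.444). One of them was the highest unmatched site, near Gm17379, whose printed bases repeat with a period of 31 and an identity of 70.9%.

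By position, unmatched sites were mainly distal. Introns of protein-coding genes held 762 of them (51.9%), exons 45 (3.07%) and intergenic sequence 661 (45.0%), against 50.9%, 3.24% and 45.9% of kept sites, and none of these classes passed the test. The median distance to a protein-coding TSS was 21048 bp for unmatched and 19656 bp for kept sites. Fewer unmatched sites lay within 1 kb of a TSS, 59 of 1468 (4.02%, 3.07 to 5.15) against 456 of 7492 (6.09%, 5.56 to 6.65), an odds ratio of 0.639 (0.469 to 0.859, adjusted p = 0.00882, exact test). This call was lost when peaks counted as shared only with centres within 100 bp (0.852, 0.646 to 1.11) and in the first 50% of every list (0.978, 0.665 to 1.42). Within 10 kb of a TSS the shares were 32.9% and 33.4%. The share of unmatched among triple sites ranged over the chromosomes from 11.1% (7.70 to 15.3) on chromosome 17 to 18.6% (14.9 to 22.7) on chromosome 15.

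Unmatched triple sites were also compared with the 1511 IRF4 peaks that had a JunB but no BATF peak and likewise no Junb-deficient counterpart, within 20 parts of the list and over 6 features chosen after the values above were seen. Triple sites held the AP-1 word more often, at 53.0% against 45.1% (42.6 to 47.7), with an odds ratio of 1.32 (1.13 to 1.55, adjusted p = 0.00146, exact test). They held the AICE word more often as well, at 6.61% against 4.10% (3.16 to 5.23; odds ratio 1.65, 1.15 to 2.39, adjusted p = 0.0106, exact test). They lay less often within 1 kb of a TSS, at 4.02% against 6.88% (5.66 to 8.28; odds ratio 0.536, 0.370 to 0.770, adjusted p = 0.00146, exact test), and held the RUNX word less often, at 7.43% against 9.40% (7.97 to 11; odds ratio 0.715, 0.536 to 0.953, adjusted p = 0.0297, exact test). For tandem IRF words both shares were 4.43% (odds ratio 0.982, 0.661 to 1.46), and for GATA words 14.4% and 13.0% (odds ratio 1.14, 0.902 to 1.43). Presence or absence of BATF, which separates the groups, was itself read from 1 library.

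The 10 unmatched sites that stood highest in the IRF4 list lay within its first 838 places, at places 85 to 5276 of the JunB list and 58 to 1829 of the BATF list. The first, at place 176 of 31093 for IRF4, 85 of 29659 for JunB and 58 of 13570 for BATF, was the repeat site in an intron of Mid1, 9.96 kb upstream of Gm17379, and no Junb-deficient IRF4 peak was listed within 216099 bp of it. The next lay in an intron of Ptp4a2, which codes for a tyrosine phosphatase, with places 264, 174 and 205 and 2 AP-1 words, and the nearest Junb-deficient peak 3822 bp away. The third lay 1.76 kb upstream of a TSS of Celf2, which codes for an RNA-binding protein, with places 269, 635 and 595. The others lay near Il7r, the receptor for the survival cytokine IL-7 (place 553 for IRF4), Fam107b (658), Ets1, which codes for a T cell transcription factor (667, 229 kb from the TSS), Gpr33 (760), Mettl21d (776), Jak2, a kinase of cytokine receptors (827), and Lrba, which codes for a protein that keeps CTLA4 from lysosomal breakdown (838). Of these 10 sites, 6 held an AP-1 word and 4 did not. The gap to the nearest Junb-deficient peak was below 1 kb at Lrba alone (823 bp), and that site becomes a kept one if peaks within 1 kb count.

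By nearest TSS within 100 kb, 1263 unmatched sites were assigned to 1127 protein-coding genes, out of 4648 genes with a triple site. Most genes had 1 unmatched site, 108 genes had 2 or more and 21 had 3 or more. For no gene with 3 or more triple sites were all of them unmatched. Of the 7740 triple sites assigned to a gene, 1263 were unmatched, beside 16.4% of all triple sites. The genes named next were picked by their counts, so that extreme values were selected, and no count was tested. Celf2 had the most unmatched sites, 6 of its 11 triple sites. Arhgap12, which codes for a GTPase-activating protein, and Cd200r3, a receptor gene of the CD200 receptor family, each had 4 of 6. Pde4d, which codes for a phosphodiesterase of cyclic AMP, had 4 of 7, and Ncoa2, a coactivator of nuclear receptors, 4 of 9. Jak1, the kinase shared by many cytokine receptors, and Rasgrp1, which activates Ras downstream of the T cell receptor, each had 3 of 5, as did Zc3h12c. Nfkbiz, which codes for a nuclear regulator of NF-kB, and Sgip1 each had 3 of 6. Gm5444 and Olfr266, an olfactory receptor gene, each had 3 of 4. At Celf2 the 6 unmatched sites stood at places 269, 2989, 8133, 8793, 12418 and 13032 of the IRF4 list, and at Jak1 the 3 stood at 2304, 10114 and 10260. At the other end, 58 genes had 5 or more triple sites and no unmatched one. Of these, Bach2, which codes for a repressor that holds T cells in a resting state, had the most, 16 triple sites, and Arid5b, Etv6 and Mgat5 had 10 each, all 4 named after their values were seen.

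**Figure D5:**
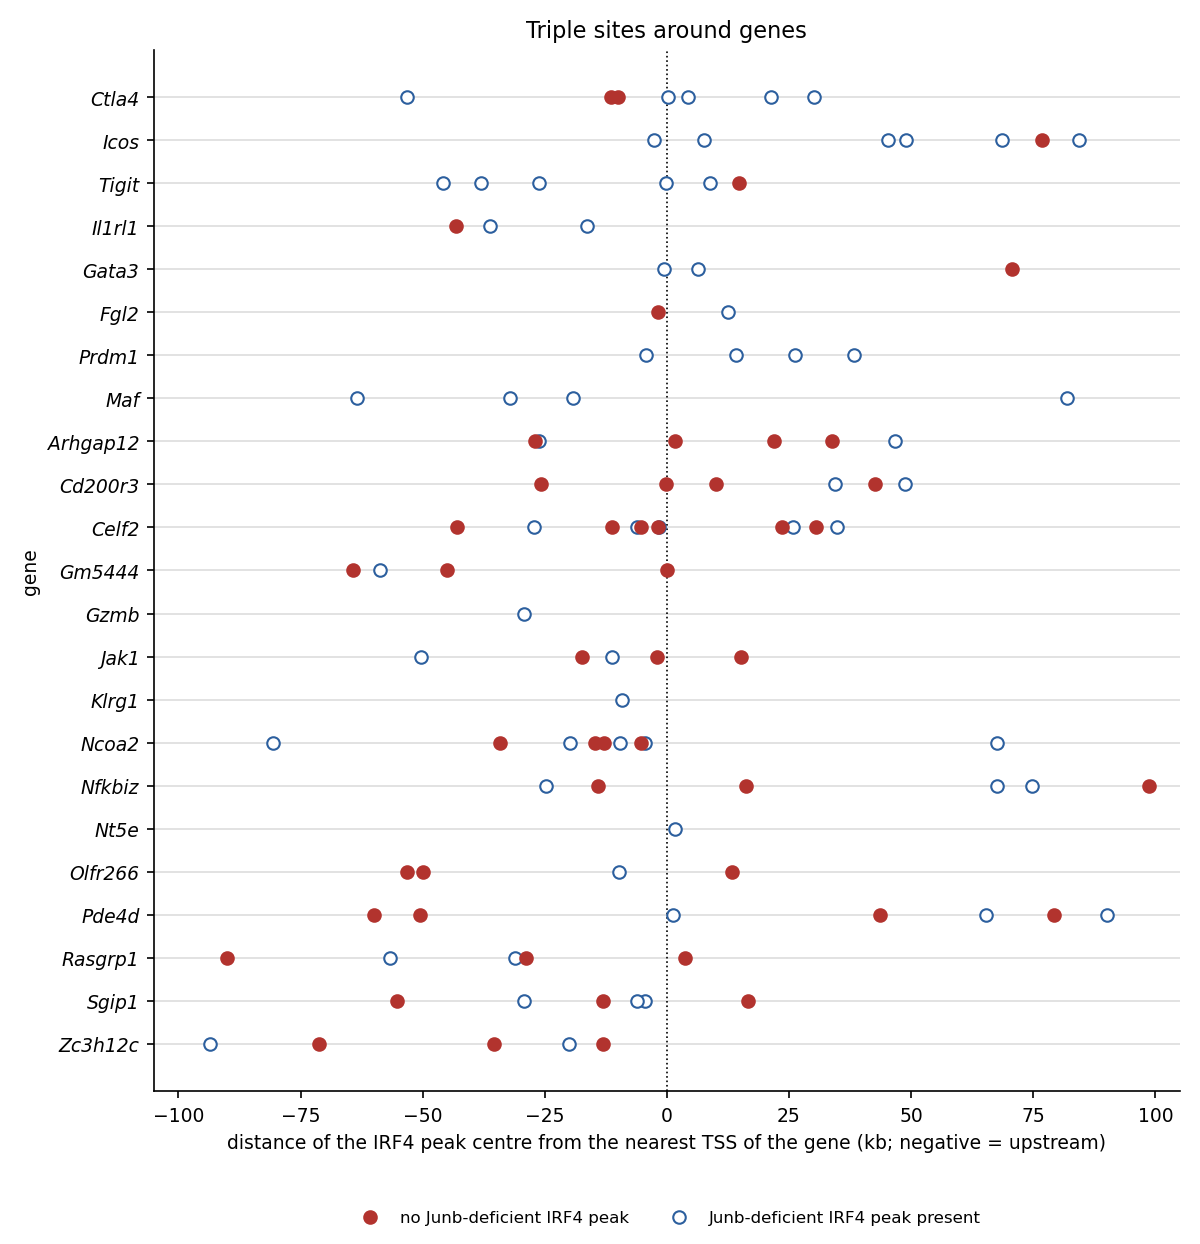
Triple sites around 11 genes taken from the study's text on effector Treg cells and the 12 genes with most unmatched sites, by distance of the IRF4 peak centre from the nearest TSS of the gene in kb (negative, upstream). Filled red points are sites without and open blue points sites with a Junb-deficient IRF4 peak. Each site is drawn only at the gene of its nearest TSS. Ctla4 had 2 unmatched sites, 10.1 and 11.4 kb upstream of a TSS, among 5 kept ones, and Prdm1 and Maf had 4 kept sites each.

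The 11 genes taken from the study's text on effector Treg cells were examined next, with sites assigned within 100 kb of a TSS. Ctla4, which codes for the inhibitory receptor CTLA4, had 7 triple sites, of which 2 were unmatched. These lay at chr1:60955491-60956103, within the annotated gene and 10.1 kb upstream of its nearest TSS (IRF4 place 1001, JunB 6672, BATF 1176), and at chr1:60932088-60932700, 11.4 kb upstream of the first TSS (places 1696, 13829 and 2177). The nearest Junb-deficient peak was 6171 and 6359 bp away. At both of these sites the BATF peak was centred 467 and 420 bp from the IRF4 peak, so that the peaks overlapped in part, and both sites drop out when centres must lie within 100 bp. The 5 kept Ctla4 sites stood at places 192, 274, 562, 635 and 4807. Icos, which codes for a costimulatory receptor, had 1 unmatched site of 7, at chr1:61111184-61111796, 76.7 kb downstream of a TSS, with places 2431, 1528 and 2146 and a gap of 3495 bp. Its 6 kept sites stood at places 516 to 5689, on either side of it in the list.

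Tigit, which codes for another inhibitory receptor, had 1 unmatched site of 6, in an intron at chr16:43649150-43649762, at place 15744 of the IRF4 list, below its 5 kept sites (places 736 to 3040). Il1rl1, which codes for the IL-33 receptor ST2, had 1 of 3, at chr1:40442884-40443496 (place 7027, kept sites at 355 and 5884). Fgl2, which codes for a suppressive secreted protein, had 1 of 2, at chr5:20876276-20876888, 1.88 kb upstream of a TSS and within an intron of Ccdc146, at place 7302 and with a kept site at 7056. Gata3, a transcription factor gene, had 1 of 3, at chr2:9724409-9725021, 70.6 kb downstream, with 3 AP-1 words and places 8917, 2791 and 8223. A Junb-deficient peak lay 918 bp from it. In each of these genes the unmatched sites stood below the highest kept site. Prdm1 and Maf, transcription factor genes of effector cells, had 4 kept sites each, and Gzmb, Nt5e and Klrg1 had 1 each. No unmatched site was assigned to these 5 genes, since each site went to its nearest TSS only. An unmatched site may still lie within 100 kb of them. For example, the unmatched site at chr10:44120175-44120787 was assigned to Atg5 and also lies within 100 kb of a Prdm1 TSS. The paper reports lower IRF4 binding without JunB near Icos, Ctla4, Gzmb and Maf, and unaffected binding near Prdm1 and Gata3. It compared levels of binding at chosen sites, whereas a kept site here has a called peak that may be lower. The paper's sites were not matched to those listed here.

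Groups of T cell genes were then counted, from 13 lists with 189 genes, beside the 16.4% of all triple sites. Inhibitory receptors and ligands had 6 unmatched of 27 triple sites (22.2%, 8.62 to 42.3), at Ctla4, Tigit, Cd96, Havcr2 and the ligand gene Pdcd1lg2. Costimulators of the TNF receptor family, listed together with Icos and Cd28 of another family, had 3 of 17 (17.6%, 3.80 to 43.4). These lay at Tnfrsf9, 1.06 kb downstream of a TSS, and at Icos and Cd28, which held 7 and 4 of the 17. Genes of interferon regulatory factors had 4 of 13 (30.8%, 9.09 to 61.4), with 2 at Irf2 and 1 each at Irf8 and Irf4 itself, 55.3 kb downstream at place 10185. Factors of Treg cells and T helper lineages had 6 of 39 (15.4%, 5.86 to 30.5), with 2 at Bcl6 and 1 each at Gata3, Ikzf1, Ikzf2 and Runx1. Each of these intervals included the share of all triple sites.

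Cytokine receptors and STAT factors had 4 unmatched of 42 triple sites (9.52%, 2.66 to 22.6). One lay at the promoter of Il2ra, which codes for CD25, 131 bp upstream of a TSS at place 1084 of the IRF4 list, and no Junb-deficient IRF4 peak was listed within 19497 bp of it. Others lay at Stat5b and Stat4. T cell receptor signalling genes had 4 of 31 (12.9%, 3.63 to 29.8), at Cd3e, Prkcq, Nr4a3 and Egr2. Genes of AP-1 and BACH factors had 3 of 35 (8.57%, 1.80 to 23.1), with 2 at Bach1 and 1 at Jun, and genes of resting T cells 4 of 48 (8.33%, 2.32 to 20.0), with 2 at Ets1 and 1 each at Il7r and Klf2. Helper cytokine genes had 2 of 17 (11.8%, 1.46 to 36.4), at Il13, within an intron of Rad50, and at Il9, 93 bp upstream of a TSS. Chemokine and homing receptors had 2 of 30 (6.67%, 0.818 to 22.1), at Cxcr4 and Itgb8, suppressive mediators 1 of 11 (9.09%, 0.230 to 41.3), at Fgl2, and genes of survival and cell death 0 of 21 (0 to 16.1). The effector genes above, other than Gata3, had 6 of 36 (16.7%, 6.37 to 32.8). Lists share genes. The interval of the survival genes ended just below 16.4%, and those of the other 12 lists included it. Havcr2, Runx1, Stat4 and Egr2 were named after their values were seen, to complete the counts. Unmatched sites near Irf2 (1 of 2), Jun, Pde4d (1 of 4), Gata3, Lrba and Havcr2 (a gap of 535 bp) had a Junb-deficient peak within 1 kb.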

How the data were processed

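The deposited files are 4 peak lists in BED form, 1 per library. Per the paper's methods and the file headers, Bowtie2 was used by the authors for alignment to mm9, and HOMER for calling peaks per library at a false discovery rate of 0.001. The command in the headers lists no control library. The submitters' processing notes name HOMER 4.8, whereas the paper's reporting summary names a later version. The deposited score is 1 for every peak and was not used. Place in the list was used for strength, although the headers do not name the order. Recorded totals were 21127029 to 27399986 tags, and peaks were called on 16.0 to 17.9 M. Lists give no counts per peak, so that intervals, at a confidence level of 95%, cover counting over peaks only.

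Peaks were overlapped by at least 1 bp, and sequence was read from the NCBIM37 (mm9) assembly with the GENCODE vM1 annotation, which holds 69976 TSS positions of protein-coding transcripts. Words were matched on both strands within 100 bp of the peak centre. Odds ratios came from the exact conditional test of R 4.3.3 (mantelhaen.test) over 20 parts of the IRF4 list, two-sided, with Benjamini-Hochberg adjustment over 19 features, and separately over 3 added features and over 6 features against sites without BATF. Shares have Clopper-Pearson intervals. Python 3.11.15 with NumPy 2.4.6, SciPy 1.17.1 and matplotlib 3.10.9 did the rest, and the procedures were tested on simulated data.

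Sites, gene lists and features were chosen with earlier results of these data known. Named were the 10 unmatched sites highest in the IRF4 list, the 12 genes with most of them, all assigned within 100 kb to 11 genes from the study's text, and from each list the 3 genes with most. Alternatives covered the overlap rule, the share of the lists, exchange of the BATF and IRF4 lists, the strata, the window, and the distance to a TSS. A test of soft-masked repeats was planned and not run, since the genome given has no lower-case bases. The study's RNA-seq and ChIP-PCR were not analysed here. Values of some named sites are not reported here.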

Additional observations from a re-analysis of the deposited data

How the results depend on the processing

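The share of unmatched triple sites was 16.4%, and 21.5% with centres at most 100 bp apart, 18.7% with an overlap of 50% of the shorter peak, 15.5% when a Junb-deficient peak within 1 kb counted as a counterpart, 18.5% in the first 50% of every list and 16.5% with BATF and IRF4 exchanged. The AP-1 odds ratio ranged from 1.65 to 2.10 over 16 alternatives and stayed past the threshold in each, and the AICE odds ratio from 0.820 to 1.13 over 16, past it in none. Tandem IRF (0.312 to 0.506), RUNX (0.406 to 0.640) and GATA (0.516 to 0.744) stayed below 1 and past it in all 16. Proximity to a TSS was past the threshold in 9 of 12: it was not with centres within 100 bp (0.852, exact p = 0.245) or in the first 50% of every list (0.978, exact p = 1), and within 10 kb of a TSS the odds ratio was 1.05. GC content, not past it at matched place, was past it without strata (0.805) and with BATF and IRF4 exchanged (0.743). The causes were not tested. Restriction to sites with no other Junb-deficient peak within 10 kb (722 unmatched and 4503 kept) gave 1.89 for AP-1 and 0.312 for tandem IRF, an alternative added after seeing the data, as were those for tandem IRF, RUNX and GATA. Of 87 named sites, 81 stayed unmatched when peaks within 1 kb counted, 84 with the 50% overlap, 76 with centres within 100 bp and 47 in the first 50% of every list, where the other 40 were no longer triple sites.

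No paired analysis was possible because each group had 1 library, which also leaves no replicate to omit. The lists hold no tag counts, and a weaker peak under the threshold cannot be told apart from an absent one, nor the genotype from the library.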
